A study of Mus musculus with 12 samples.

Results

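The genes described here are Smarca1, which encodes the chromatin remodelling ATPase SNF2L, and 9 genes of the other catalytic and accessory subunits of the ISWI remodellers: Smarca5, Bptf, Cecr2, Baz1a, Baz1b, Baz2a, Rbbp4, Rbbp7 and Chrac1. Every probe set whose platform annotation gives 1 of these symbols alone was taken, which gave 29 probe sets for the 10 genes, out of 34958 probe sets for 18194 genes on the array. Smarca1 had 1 probe set and each of the other 9 genes had several. RNA came from mouse granulosa cells, the somatic cells that surround the oocyte in the follicle and make its estrogen. Females of 24 to 26 days were injected with 5 IU of PMSG, a gonadotropin that makes follicles grow. After 48 h the cells were either collected (0 h) or the mice were given 5 IU of hCG, which acts on the LH receptor and sets off ovulation, and cells were collected 4 h later. The 12 arrays fell into 4 groups of 3: WT 0 h, WT 4 h, Ex6DEL 0 h and Ex6DEL 4 h.

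All 4 groups received PMSG, and both genotypes were littermates from a 129SV colony. The Ex6DEL mice lacked exon 6 of Snf2l (Smarca1) in every tissue: a loxP-flanked exon of 129Sv origin had been removed by a ubiquitously expressed Gata-1 Cre transgene of CD-1 background, and the deleted allele was then bred on without Cre. The deletion was therefore not limited to granulosa cells. Each array held RNA of cells from 5 mice, pooled, and the cells were released by puncturing single follicles. Whether a group's 3 arrays hold 3 different pools is not stated in the labels, so p-values measure the spread between these samples, which may be technical.

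ISWI remodellers slide and space nucleosomes with the energy of ATP. SNF2L and its close relative SNF2H (Smarca5) are alternative motors, and the partner protein decides which complex is built. In mammals BPTF with the histone-binding proteins RBBP4 and RBBP7 makes NURF, CECR2 makes CERF, BAZ1A makes ACF and, together with the small histone-fold protein CHRAC1, CHRAC. BAZ1B makes WICH and BAZ2A makes NoRC, which silences ribosomal RNA genes. SNF2L is abundant in brain and in the gonads, where it has been linked to granulosa cell differentiation.

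The upstream sequences of the 2 ATPase genes are shown because they code for alternative motors of the same family and their hCG values are set side by side later. The sequences are the 250 bases before the annotated start of each gene on its coding strand, taken from RefSeq on GRCm38.p6. Such a sequence was found for 7 of the 10 genes. Smarca1 lies at chrX:47892614-47892863 on the minus strand and Smarca5 at chr8:80739460-80739709 on the minus strand. Capitals mark matches to the motifs searched.
Smarca1: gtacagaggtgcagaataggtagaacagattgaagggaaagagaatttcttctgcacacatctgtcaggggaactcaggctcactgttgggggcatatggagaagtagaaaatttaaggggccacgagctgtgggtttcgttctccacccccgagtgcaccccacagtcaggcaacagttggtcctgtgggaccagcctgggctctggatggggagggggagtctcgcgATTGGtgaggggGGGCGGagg
Smarca5: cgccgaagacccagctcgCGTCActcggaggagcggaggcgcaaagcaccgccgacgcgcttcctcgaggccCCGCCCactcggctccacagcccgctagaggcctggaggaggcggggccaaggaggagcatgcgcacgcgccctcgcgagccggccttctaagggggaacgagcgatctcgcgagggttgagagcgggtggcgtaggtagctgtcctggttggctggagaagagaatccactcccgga
The Smarca1 sequence holds a GC box (GGGCGG) and a CCAAT box read on the other strand (ATTGG), and 56.4% of its bases are G or C. The Smarca5 sequence holds a GC box read on the other strand (CCGCCC) and the short cAMP response element TGACG read on the other strand (CGTCA), and 69.2% of its bases are G or C. The median over all promoters was 52.4%. Of 32851 promoter windows of this length, 32.7% hold GGGCGG on either strand, 33.8% hold CCAAT and 17.8% hold TGACG. Neither sequence holds the full cAMP response element TGACGTCA, which contains TGACG and is in 1.55% of windows. The core promoter motif TATAAA, in 12.4% of windows, is absent from both. The motif AGGTCA of the steroidogenic factor SF1 is in 14.02% of windows and in neither sequence. The motif TGTGGT of RUNX factors is in 14.05% of windows and in neither sequence. The AP1 motif TGAGTCA, in 4.46% of windows, is likewise in neither. These matches describe letters only.

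The deposited values are log2 intensities, and all differences below are differences of log2 values. On all 12 arrays 16 of the 29 probe sets had a mean above 6 and 13 did not. In 10 probe sets at least 4 arrays shared a value within 0.01. Low signals do so after this background correction, but not all of the 10 were low. Bptf 1439102_at, with a mean of 6.43, had the value 6.48 on 5 arrays. Array medians lay between 2.75 and 2.91. Arrays of a group correlated at 0.961 to 0.990 over the highest-mean probe set of each gene. Granulosa markers had mean log2 values of 12.04 to 12.97 in WT 0 h, 11.51 to 12.17 in WT 4 h, 12.75 to 13.37 in Ex6DEL 0 h and 11.31 to 11.37 in Ex6DEL 4 h, over 7 measured of 8 listed, with Amh near the table floor of 2.21 on all arrays. Oocyte markers, 7 of 7 measured, lay at 7.32 to 8.62, 8.07 to 8.69, 8.53 to 9.99 and 8.08 to 9.03 in the same order. Theca and stroma markers, 6 of 6 measured, lay at 8.44 to 9.51, 8.41 to 9.13, 8.63 to 12.48 and 7.66 to 8.91. Leukocyte markers, 4 of 4 measured, lay at 4.98 to 5.67, 5.33 to 5.53, 5.17 to 5.64 and 5.28 to 6.03. Endothelial markers, 4 of 4 measured, lay at 3.45 to 4.75, 4.51 to 4.62, 4.16 to 4.83 and 4.26 to 5.19, with Pecam1 near the floor and Kdr at group means of 7.55, 9.01, 8.28 and 9.08. Of the red blood cell markers 2 of 4 were measured: the globin gene Hba-a1 was near the floor, and Alas2 had group means of 8.64, 10.56, 8.97 and 10.82. In the averaged hCG response 2 of 12 granulosa probe sets fell past limma's adjusted p of 0.05, where 3.57% of all probe sets fell. No probe set of the other marker lists passed. A limma unadjusted p under 0.05 was found for 4 of 12 granulosa, 0 of 9 oocyte and 1 of 12 theca and stroma probe sets. The same held for 2 of 5 leukocyte, 1 of 5 endothelial and 1 of 2 red blood cell probe sets, against 19.1% of all. Between genotypes at 0 h no marker probe set passed. Unadjusted, 6 of 9 oocyte and 4 of 12 granulosa probe sets had a p under 0.05, against 4.67% of all, and 0 of the other lists. In bulk RNA, fewer cells of a type and less RNA per cell cannot be told apart.

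Several arrays stood apart from their groups. Ex6DEL 0 h replicate 1 had the theca and stroma mean of 12.48, against 9.55 and 8.63 on the other arrays of its group, and the oocyte mean of 9.99, against 8.90 and 8.53. Star, which LH induces, had a value of 11.48 on Ex6DEL 0 h replicate 3 and 4.22 on replicate 1 of the same group. WT 4 h replicate 1 and Ex6DEL 4 h replicate 1 were the highest of their groups for 6 and 8 of the 10 genes, judged on the brightest probe set of each gene (highest mean). Over all genes the shares were 33.9% and 35.7%. Some results are therefore also given without these arrays.

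**Figure D1:**
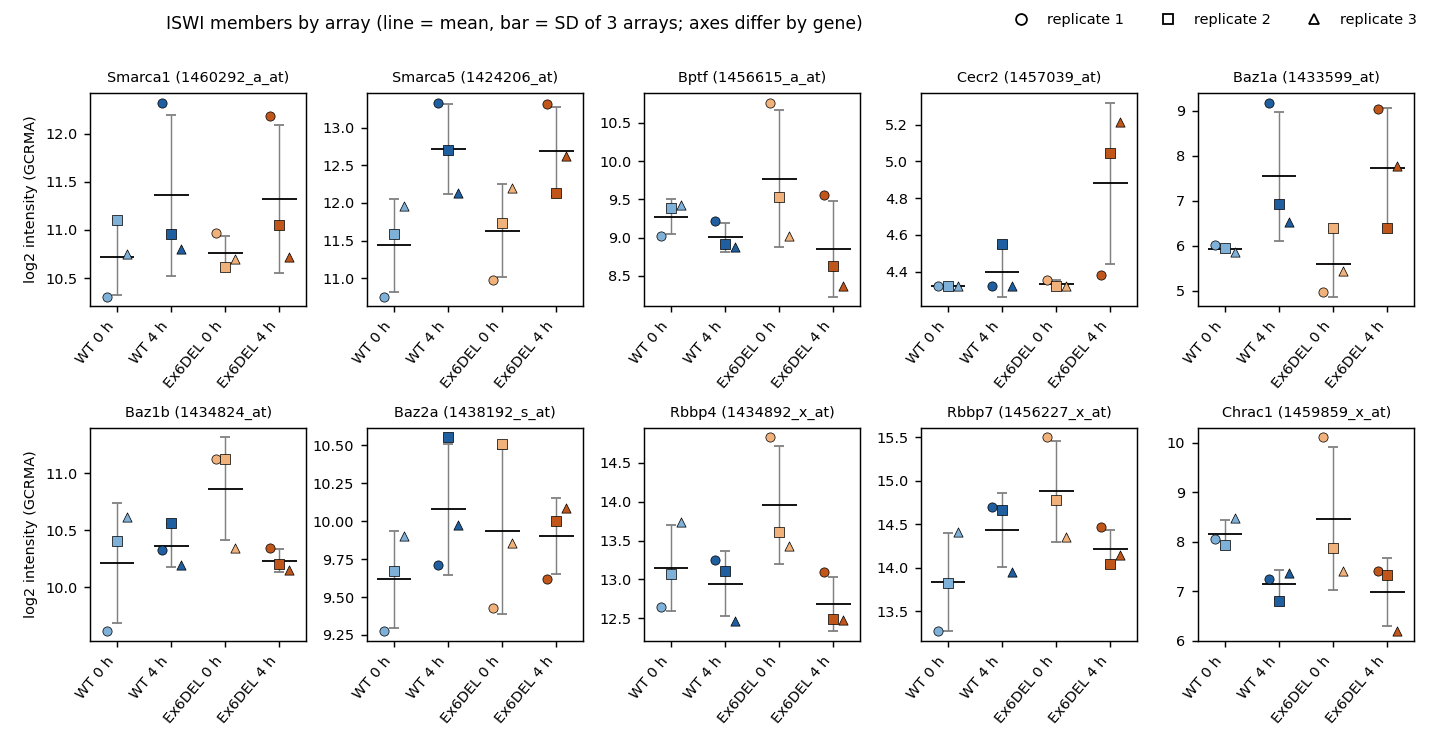
Log2 intensity of the highest-mean probe set of each of the 10 genes on all 12 arrays, by group; symbols are replicates, the line is the mean and the bar the SD of 3 arrays, and each panel has its own axis. Replicate 1 stands high in both 4 h groups for Smarca1, Smarca5 and Baz1a, and in Ex6DEL 0 h for Bptf, Rbbp4, Rbbp7 and Chrac1.

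The first comparison asks how these genes responded to the ovulatory signal. In WT cells 0 of the 29 probe sets passed limma's adjusted p of 0.05, where 0.618% of all probe sets did, and 5 of 29 had an unadjusted p under 0.05, against 12.1% of all. In Ex6DEL cells 0 of 29 passed, where 0.858% of all did, and 9 had an unadjusted p under 0.05, against 15.3%. Averaged over the genotypes 1 of 29 passed, a Chrac1 probe set that fell, where 6.06% of all passed in either direction and 3.57% fell. Unadjusted, 12 of 29 had a p under 0.05, against 19.1% of all. The groups did not overlap for 3 probe sets that were higher and 2 that were lower in WT (6.93% and 8.23% of all), and for 4 and 1 in Ex6DEL (5.14% and 10.2% of all). The median change of the 29 probe sets was 0.15 in WT, 0.17 in Ex6DEL and 0.22 averaged, and that of all probe sets was 0 each time. For the 17479 probe sets above the median level it was -0.02, -0.16 and -0.09.

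Smarca1 read 10.31, 11.10 and 10.75 in WT 0 h and 12.32, 10.96 and 10.80 in WT 4 h. Ex6DEL arrays gave 10.96, 10.61 and 10.70 at 0 h and 12.19, 11.05 and 10.72 at 4 h. Only replicate 1 of each 4 h group lay above every 0 h array, and the groups overlapped in both genotypes. By mean the order was WT 4 h, Ex6DEL 4 h, Ex6DEL 0 h and WT 0 h, and no neighbours in it differed by more than the larger of their SDs (0.18 to 0.84, n = 3 arrays). The averaged change was 0.60 (SE 0.34, interval -0.18 to 1.38), and limma's adjusted p was 0.411. Without both replicate 1 arrays of 4 h, a choice made after the values were seen, the change was 0.14. The position of the Smarca1 probe set relative to exon 6 was not examined, so these values do not check the deletion.

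Smarca5, the gene of the alternative ATPase SNF2H, had higher means at 4 h on 3 well-measured probe sets in both genotypes. Probe set 1424206_at read 10.75, 11.59 and 11.96 in WT 0 h and 13.33, 12.70 and 12.14 in WT 4 h. In Ex6DEL it read 10.97, 11.73 and 12.19 at 0 h and 13.31, 12.13 and 12.62 at 4 h. All 4 h arrays of WT lay above all 0 h arrays of WT, while in Ex6DEL a 4 h array lay below the highest 0 h array. The averaged change of 1.17 (SE 0.34), a 2.25-fold difference, had a limma adjusted p of 0.0854. Probe set 1424207_at had an averaged change of 0.94 (SE 0.27, adjusted p = 0.0852) and 1424205_at of 1.22 (SE 0.52, adjusted p = 0.244). The fourth, 1440048_at, was low, with 8 arrays sharing the value 3.58. None of the 4 passed the threshold. Of the 12 fits that left out 1 array, only that without Ex6DEL 0 h replicate 3 called 1424207_at (adjusted p = 0.0364). In the others its adjusted p reached up to 0.187.

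Because both ATPases are read on every array, the difference of Smarca1 and Smarca5 (1424206_at) within an array does not depend on a shift of a whole array. It says nothing of their relative abundance, since the probes differ, and is used for its change alone. The difference was -0.45, -0.49 and -1.21 in WT 0 h and -1.01, -1.74 and -1.34 in WT 4 h. In Ex6DEL it was -0.01, -1.11 and -1.49 at 0 h and -1.12, -1.08 and -1.91 at 4 h. The groups overlapped in both genotypes. It was lower at 4 h by -0.57 on average, which did not pass a two-sided exact permutation test of times within genotypes (p = 0.07, smallest possible 0.005, n = 3 arrays per group). Leaving out single arrays gave -0.726 to -0.355, with exact permutation p from 0.04 to 0.2. The p was under 0.05 in the exact permutation tests without Ex6DEL 0 h replicate 3 (0.04) and without WT 0 h replicate 3 (0.045). With the probe sets of each gene averaged the change was -0.291. Over the settings other than single arrays left out, the permutation p reached up to 0.27.

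Baz1a, the large subunit that joins the ATPase in ACF and CHRAC, had the largest positive averaged changes among the members. Probe set 1433599_at read 6.00, 5.95 and 5.85 in WT 0 h and 9.18, 6.93 and 6.52 in WT 4 h. Values of 4.96, 6.40 and 5.44 at 0 h and 9.03, 6.40 and 7.77 at 4 h were found in Ex6DEL. The WT groups did not overlap and the Ex6DEL groups met at 6.40. Its averaged change was 1.87 (SE 0.58), a 3.65-fold difference, with a limma adjusted p of 0.107. Probe set 1447930_at read 5.60, 5.18 and 4.81 in WT 0 h, 7.26, 6.35 and 5.60 in WT 4 h, 6.37, 5.49 and 4.81 in Ex6DEL 0 h and 7.60, 6.68 and 6.70 in Ex6DEL 4 h. Here the Ex6DEL groups did not overlap and the WT groups met at 5.60. Its averaged change was 1.32 (SE 0.37), and the adjusted p was 0.0750, or 0.0444 after quantile normalization. Without both replicate 1 arrays of 4 h the averaged changes of the Baz1a probe sets were 1.14 and 0.96.

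**Figure D2:**
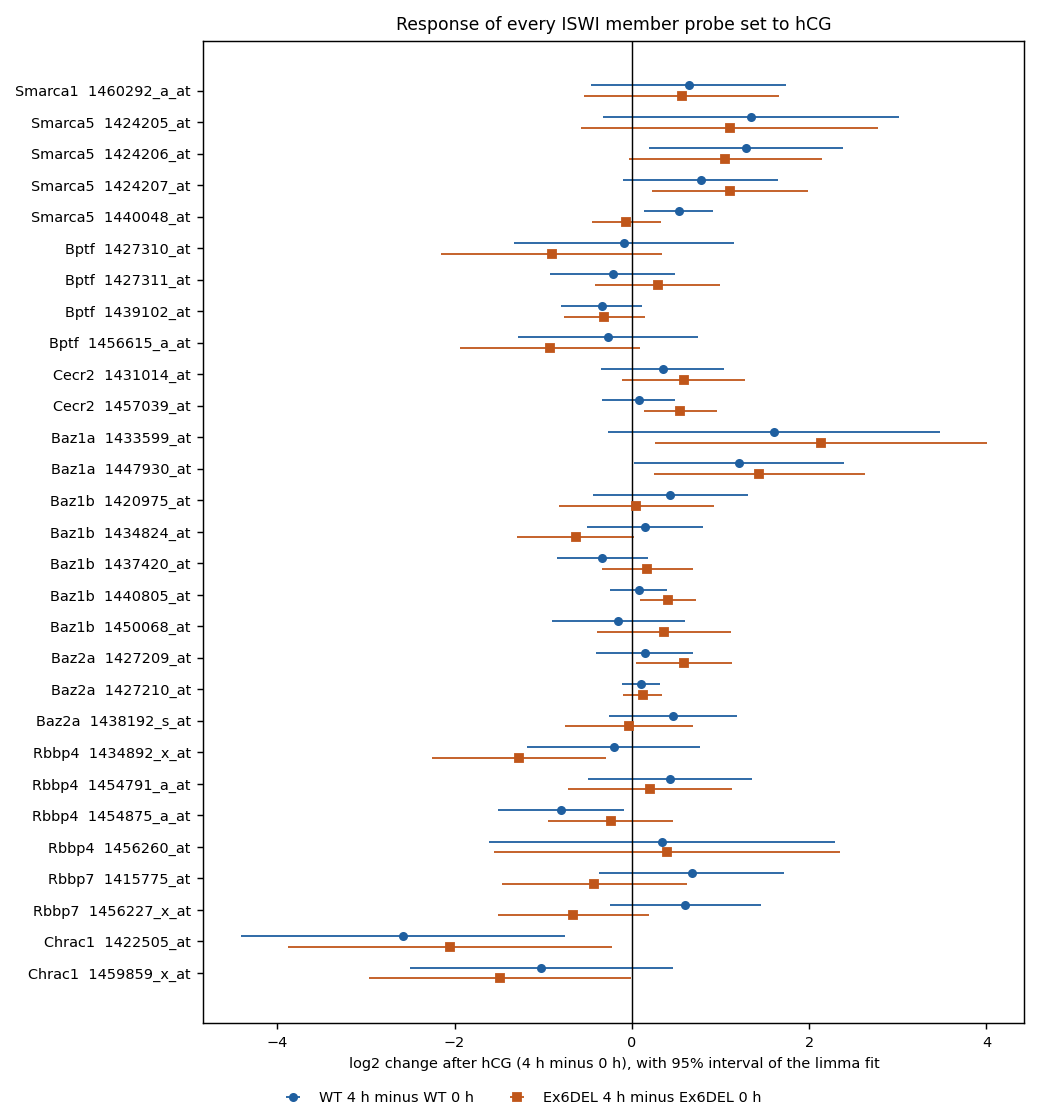
Log2 change from 0 h to 4 h after hCG for all 29 probe sets in WT and Ex6DEL (points) with 95% intervals of the limma fit (lines). The changes run from -2.58 for Chrac1 to 2.13 for Baz1a, and no single point passed the adjusted p of 0.05.

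The other large partner subunits showed smaller changes. Bptf, the NURF scaffold that reads methylated histone H3, had values of 9.02, 9.38 and 9.43 in WT 0 h and 9.22, 8.92 and 8.87 in WT 4 h on probe set 1456615_a_at. The Ex6DEL values were 10.76, 9.53 and 9.02 at 0 h and 9.55, 8.63 and 8.37 at 4 h. The groups overlapped in both genotypes, and the value of 10.76 stood alone. The averaged change was -0.60 (SE 0.32, adjusted p = 0.366) and was -0.35 without Ex6DEL 0 h replicate 1. Probe set 1427310_at had an averaged change of -0.50 (adjusted p = 0.580) and its highest value, 10.17, on the same array, without which the change was -0.17. The other 2 Bptf probe sets, 1439102_at and 1427311_at, changed by -0.32 and 0.04 in the fit and did not pass.

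Cecr2, the partner in CERF, was near background: probe set 1457039_at had the value 4.32 on 7 arrays, among them all 3 of WT 0 h. It read 4.32, 4.55 and 4.32 in WT 4 h, 4.36, 4.32 and 4.32 in Ex6DEL 0 h and 4.38, 5.05 and 5.21 in Ex6DEL 4 h. The highest values were thus those of Ex6DEL 4 h replicates 2 and 3. The averaged change was 0.31 (adjusted p = 0.226). The change in Ex6DEL was 0.55 (SE 0.18, adjusted p = 0.195) and became 0.80 (adjusted p = 0.00653) without Ex6DEL 4 h replicate 1. That was the only 1 of the 12 fits without 1 array in which it passed. Probe set 1431014_at, also low, had an averaged change of 0.47 (adjusted p = 0.292).

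Baz1b, the partner in WICH, was measured well on probe set 1434824_at, which read 9.61, 10.40 and 10.62 in WT 0 h and 10.32, 10.57 and 10.20 in WT 4 h. Ex6DEL arrays gave 11.13, 11.12 and 10.34 at 0 h and 10.34, 10.21 and 10.15 at 4 h. The 2 highest of the 12 values were those of Ex6DEL 0 h replicates 1 and 2. The averaged change was -0.24 (SE 0.20, adjusted p = 0.615). With WT 0 h replicate 1 and also Ex6DEL 0 h replicate 3 left out it was -0.52 (limma adjusted p = 0.0186). These were the lowest 0 h arrays of WT and of Ex6DEL on this probe set, so leaving them out makes a fall larger by itself. None of the 12 fits without 1 array passed (lowest limma adjusted p = 0.240). The other 4 Baz1b probe sets, 1420975_at, 1437420_at, 1440805_at and 1450068_at, had means below 3 and averaged changes of -0.08 to 0.24, none of which passed. Baz2a, the NoRC subunit, read 9.27 to 9.90 in WT 0 h, 9.71 to 10.55 in WT 4 h, 9.43 to 10.51 in Ex6DEL 0 h and 9.62 to 10.09 in Ex6DEL 4 h on 1438192_s_at. All groups overlapped, and the averaged change was 0.22 (SE 0.22, adjusted p = 0.618), or 0.09 without Ex6DEL 0 h replicate 1. Its other 2 probe sets, 1427209_at and 1427210_at, had averaged changes of 0.37 and 0.11 and did not pass. The second had the value 4.96 on 9 arrays and was higher only on replicate 1 of WT 4 h (5.27) and of Ex6DEL 4 h (5.225). It passed after quantile normalization (0.18, limma adjusted p = 0.0227), but without both replicate 1 arrays of 4 h its change was 0.018.

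Rbbp4 and Rbbp7 encode closely related WD-repeat proteins that bind histones in NURF and in several other chromatin complexes, and probes of one may also bind RNA of the other. Rbbp4 probe set 1434892_x_at read 12.65, 13.07 and 13.74 in WT 0 h and 13.26, 13.11 and 12.47 in WT 4 h. In Ex6DEL it read 14.83, 13.61 and 13.43 at 0 h and 13.09, 12.49 and 12.48 at 4 h. The Ex6DEL groups did not overlap and the WT groups did. The change was -1.27 in Ex6DEL (SE 0.43, adjusted p = 0.202), -0.84 there without Ex6DEL 0 h replicate 1, and -0.20 in WT. Quantile normalization brought the genotypes together, with -0.83 in Ex6DEL and -0.90 in WT. The averaged change of -0.74 (adjusted p = 0.226) was then -0.87 and passed (adjusted p = 0.00784). Rbbp4 probe set 1454791_a_at had its lowest value, 6.72, on the very array where 1434892_x_at had its highest, so the probe sets disagreed. Its averaged change was 0.32 (adjusted p = 0.615), or 0.08 without that array. The changes of the low probe sets 1454875_a_at and 1456260_at were -0.52 and 0.37, and neither passed. The second was -0.21 without both replicate 1 arrays of 4 h.

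Rbbp7 probe set 1456227_x_at read 13.27, 13.82 and 14.41 in WT 0 h, 14.70, 14.66 and 13.94 in WT 4 h, 15.50, 14.78 and 14.35 in Ex6DEL 0 h and 14.46, 14.04 and 14.14 in Ex6DEL 4 h. The mean was higher at 4 h than at 0 h in WT (0.60) and lower in Ex6DEL (-0.66), with overlap in both, but the WT value turned to -0.17 after quantile normalization. The averaged change was -0.03 (SE 0.26). Probe set 1415775_at had an averaged change of 0.13 (SE 0.32, adjusted p = 0.882).

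Chrac1, the histone-fold subunit of CHRAC, had lower means at 4 h on both of its probe sets. Probe set 1422505_at read 6.11, 5.84 and 5.69 in WT 0 h and 3.02, 3.02 and 3.86 in WT 4 h. Values of 7.59, 4.84 and 4.18 at 0 h and 4.35, 2.99 and 3.12 at 4 h were found in Ex6DEL. The WT groups did not overlap, and in Ex6DEL the 4 h array at 4.35 lay above the 0 h array at 4.18. The values near 3 are close to the array medians, so the size of the difference is uncertain. The averaged change was -2.32 (SE 0.57, interval -3.61 to -1.03). Its limma adjusted p was 0.04997, just under the threshold. In WT alone the change was -2.58 (adjusted p = 0.231). Within Ex6DEL the change was -2.05 (adjusted p = 0.266), and neither passed. Without Ex6DEL 0 h replicate 1 the Ex6DEL change was -1.02, and the WT change passed (adjusted p = 0.0419). The WT change passed in no other fit that left out 1 array. Probe set 1459859_x_at read 8.06, 7.94 and 8.48 in WT 0 h, 7.24, 6.81 and 7.37 in WT 4 h, 10.11, 7.88 and 7.42 in Ex6DEL 0 h and 7.42, 7.33 and 6.19 in Ex6DEL 4 h. The WT groups again did not overlap, and the Ex6DEL groups met at 7.42. Its averaged change was -1.25 (SE 0.46, adjusted p = 0.169).

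The Chrac1 call on 1422505_at moved with single arrays. It was kept in 2 of the 12 fits that left out 1 array, without Ex6DEL 0 h replicate 1 (-1.80, adjusted p = 0.0235) and without Ex6DEL 0 h replicate 3 (-2.66, adjusted p = 0.0240), and was lost in each of the other 10. Its change stayed negative in all 12, between -2.66 and -1.80. Both Chrac1 probe sets had their highest value on Ex6DEL 0 h replicate 1, where the theca and stroma markers were high; the part of other cells in this was not tested. The averaged change of 1459859_x_at without that array was -0.84.

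The second comparison asks whether RNA of Smarca1 or of its partner genes, as read by these probe sets, differed between Ex6DEL and WT. Protein was not measured. At 0 h 0 of 29 probe sets passed limma's adjusted p of 0.05, where 0.0286% of all probe sets did, and 1 had an unadjusted p under 0.05 (4.67% of all). At 4 h 0 of 29 passed, where 0.00858% of all did, and 2 had an unadjusted p under 0.05 (1.78% of all). Averaged over the times 0 of 29 passed, where 0.0286% of all did, and 0 had an unadjusted p under 0.05 (1.77% of all). The interaction, the hCG response of Ex6DEL minus that of WT, passed for 0 of 29, where it did for 0.0286% of all, and 2 had an unadjusted p under 0.05 (2.72% of all).

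Smarca1 itself differed by -0.00044 between Ex6DEL and WT averaged over the times, with an interval of -0.78 to 0.78. For Smarca5, the alternative ATPase, the averaged difference was 0.08 (interval -0.69 to 0.85). Among the large partners it was 0.17 for Bptf (-0.55 to 0.89), 0.25 for Cecr2 (-0.04 to 0.54), -0.07 for Baz1a (-1.40 to 1.25), 0.26 for Baz1b (-0.20 to 0.73) and 0.07 for Baz2a (-0.44 to 0.58). It was 0.27 for Rbbp4 (-0.42 to 0.96), 0.41 for Rbbp7 (-0.19 to 1.01) and 0.07 for Chrac1 (-0.97 to 1.12), each on the highest-mean probe set. The upper ends of these intervals ran from 0.54 to 1.25.

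**Figure D3:**
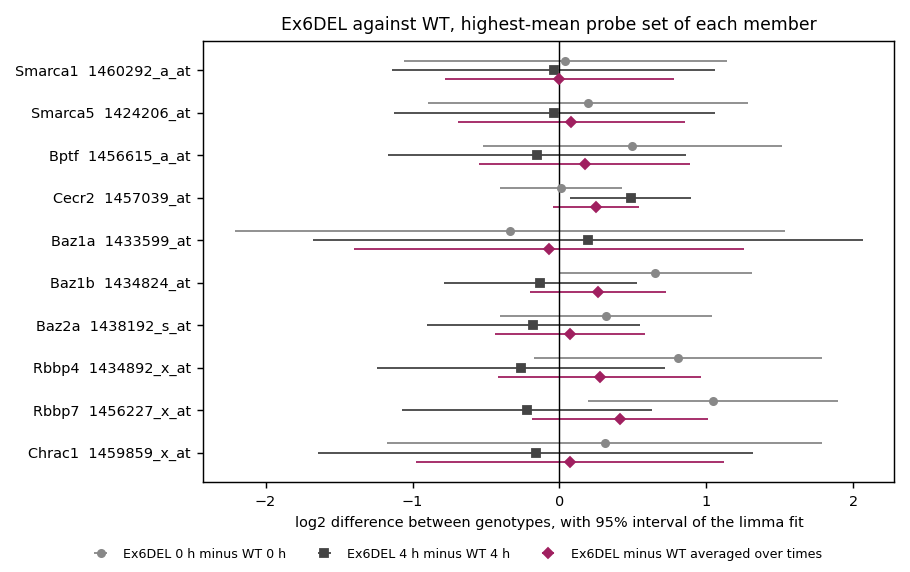
Log2 difference of Ex6DEL minus WT for the highest-mean probe set of each of the 10 genes at 0 h, at 4 h and averaged, with 95% intervals of the limma fit. The averaged differences lie between -0.07 and 0.41 and their intervals all cover 0.

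The unadjusted p-values under 0.05 in these comparisons belonged to 4 genes. Rbbp7 on 1456227_x_at was 1.04 higher in Ex6DEL at 0 h (SE 0.37, adjusted p = 0.927), and the groups overlapped. Without Ex6DEL 0 h replicate 1, which read 15.50, the difference was 0.73, and after quantile normalization it was 0.02. Its hCG response differed between genotypes by -1.26 (SE 0.53, adjusted p = 0.889), a value that became 0.003 after quantile normalization. Cecr2 on 1457039_at differed by 0.48 at 4 h (SE 0.18, adjusted p = 1), and by 0.73 without Ex6DEL 4 h replicate 1 (adjusted p = 0.0119). This Cecr2 difference passed in no other of the 12 fits without 1 array. Baz1b on the low probe set 1440805_at differed by 0.33 at 4 h (SE 0.14, adjusted p = 1), and by 0.15 without Ex6DEL 4 h replicate 1. The low Smarca5 probe set 1440048_at differed in its response by -0.59 (SE 0.24, adjusted p = 0.889).

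Across arrays, replicate 1 was often the highest of its group. Smarca1, the 3 well-measured Smarca5 probe sets and both Baz1a probe sets were highest of their group on replicate 1 in WT 4 h and in Ex6DEL 4 h. Bptf (1456615_a_at and 1427310_at), Rbbp4 (1434892_x_at), both Rbbp7 probe sets and both Chrac1 probe sets were highest of their group on Ex6DEL 0 h replicate 1, the array with the high theca and stroma and oocyte means. The sets overlapped: these Bptf, Rbbp4 and Rbbp7 probe sets were also highest on replicate 1 of both 4 h groups, and Smarca1 and Baz1a 1447930_at on Ex6DEL 0 h replicate 1. WT 0 h replicate 1 was the lowest of its group for 7 of the 10 genes, where the share over all genes was 58.0%. The part of other cell types in these patterns was not tested.

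**Figure D4:**
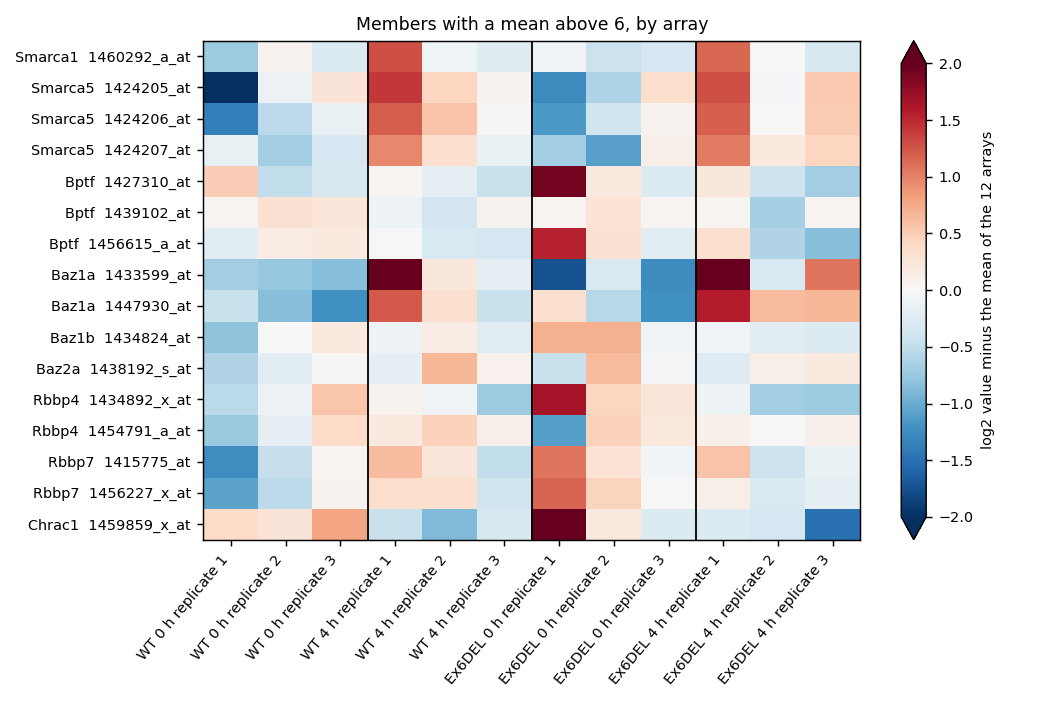
Log2 value minus the mean of the 12 arrays for the 16 probe sets with a mean above 6 (rows), by array (columns; colours are cut at 2 in each direction). Replicate 1 of both 4 h groups is high for Smarca1, Smarca5 and Baz1a, and replicate 1 of Ex6DEL 0 h for 2 of 3 probe sets of Bptf, for Rbbp7, for Chrac1 and for 1 of 2 of Rbbp4.

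Other proteins reported as partners of ISWI complexes were taken from a list, of which 9 of 11 symbols were matched, with 25 probe sets. In the averaged hCG response 1 of the 25 rose and 0 fell, where 6.06% of all probe sets passed, with a median change of 0.01. The call was Ddx21, which encodes a nucleolar RNA helicase. Probe set 1448271_a_at read 5.94, 6.36 and 5.97 in WT 0 h and 8.58, 8.52 and 7.16 in WT 4 h. The Ex6DEL values were 5.71, 5.91 and 7.01 at 0 h and 8.27, 8.05 and 7.97 at 4 h. All 4 h arrays lay above all 0 h arrays, by an averaged change of 1.94 (SE 0.31, limma adjusted p = 0.0114). The call was kept in each of the 12 fits without 1 array, and lost without both replicate 1 arrays of 4 h (1.77, adjusted p = 0.0674). The other Ddx21 probe set, 1448270_at, changed by 0.40 (adjusted p = 0.330). Luzp1, a subunit of CERF complexes in mouse, had averaged changes of 1.19 (adjusted p = 0.0811) and 0.96 (adjusted p = 0.0896) on its 2 probe sets, of which the first passed after quantile normalization (adjusted p = 0.0437). In limma's comparisons of the genotypes at 0 h and 4 h 0 of 25 passed, where 0.0286% and 0.00858% of all probe sets did. Unadjusted, 1 at 0 h and 0 at 4 h had a p under 0.05, against 4.67% and 1.78% of all.

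Of the genes reported as SNF2L targets, 4 were examined, with 7 probe sets, of which 1 rose in the averaged hCG response, where 6.06% of all probe sets passed. Unadjusted, 4 of 7 had a p under 0.05, against 19.1% of all. Star, which brings cholesterol into mitochondria for steroid synthesis, read 8.76, 9.62 and 6.03 in WT 0 h and 14.44, 13.77 and 12.99 in WT 4 h on 1449201_at. Its range in Ex6DEL was 4.22 to 11.48 at 0 h and 13.50 to 14.02 at 4 h. All 4 h arrays lay above all 0 h arrays, and the averaged change was 5.38 (SE 1.21, limma adjusted p = 0.0383). This call was kept in 2 of the 12 fits without 1 array, those without Ex6DEL 0 h replicate 1 or replicate 3, and lost in the other 10, with changes of 4.29 to 6.11 throughout. The other Star probe sets did not pass, and on them the times overlapped across genotypes. Probe set 1418729_at read 14.20 on Ex6DEL 0 h replicate 3 and 13.96 on WT 4 h replicate 3. On the same arrays 1418728_at read 12.99 and 12.38. Fgl2, the gene named with Snf2l in the title of the study, changed by 2.39 on 1421855_at (SE 1.05, adjusted p = 0.262), which did not pass, and by 1.42 without both replicate 1 arrays of 4 h. En1 was near the floor on all arrays. Between genotypes 0 of the 7 passed in limma at either time, where 0.0286% of all probe sets did at 0 h and 0.00858% at 4 h. At either time 0 of the 7 had an unadjusted p under 0.05, against 4.67% and 1.78% of all.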

How the data were processed

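Labelled RNA of granulosa cell pools was measured on 12 Affymetrix mouse genome arrays. The authors deposited 1 table of log2 intensities for 45101 probe sets, made with GCRMA per the submitters' processing notes (version not given in the sources used here), a method that subtracts a background modelled from probe sequence and gives 1 value per probe set. Values ran from 2.21 to 18.2, a top above what a scanner usually records, and the reason is not given in the sources used here. The deposited arrays did not share 1 distribution, and quantile normalization moved several values. Symbols came from the platform annotation: 34958 probe sets had exactly 1 symbol and entered the fit, while 932 with several and 9211 without were left out. The number of arrays limits the precision.

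The main test was limma (version 3.58.1, R version 4.3.3): lmFit over the 4 groups of all 12 arrays with no covariate, then eBayes at its default settings, which left 8 residual degrees of freedom (prior 0.552). The fit was tested on simulated data. Tests were two-sided, adjusted by Benjamini-Hochberg over all 34958 probe sets and called at an adjusted p under 0.05. Intervals are at 95%. Averaged contrasts weight both genotypes, or both times, equally. Groups count as not overlapping where they are apart by more than 0.01. The ATPase difference was tested over all 400 arrangements of times within genotypes.

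Every member probe set was in the fit and is named. From the 2 further lists those that passed, or up to 3 of the smallest p, were named, and Fgl2 besides. The genes most like Smarca1 were the top 3 by Pearson correlation. The members and lists were chosen with earlier results of these data known. Alternatives were quantile normalization, a shift to 1 median, filters on low values, a floor, other ways to join probe sets, eBayes with trend and robust, array weights, fits of the groups compared, the replicate block, a threshold of 0.01, and arrays left out. One item of the list of reported targets is not reported here.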

Additional observations from a re-analysis of the deposited data

How the results depend on the processing

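The 74 log2 changes and differences of members and named genes, and the ATPase difference among them, were recomputed under up to 26 other settings, of which the removal of both replicate 1 arrays of 4 h was chosen after the data had been seen. In 56 the sign never turned, among them the averaged hCG changes of Smarca1, Smarca5, Baz1a and Chrac1. In 18 it turned somewhere, and none of these was called in the main fit. Of the 18, the Ex6DEL and averaged changes of Baz1b 1434824_at were called in another setting (limma adjusted p = 0.0212 and 0.0186). That setting left out the lowest 0 h array of each genotype on this probe set. The cause of these turns of sign was not tested. The single call among members in the averaged hCG response became 4 with quantile normalization, 2 with a shift to 1 median, 5 among probe sets above the median level, 2 with a gene's probe sets averaged and 4 with array weights. It became 0 with low values raised to the table median, all probe sets of the table, 1 probe set per gene, eBayes with trend and robust, or an adjusted p under 0.01, and it ranged from 0 to 4 with arrays left out. In WT the count of 0 became 2 with array weights, and 0 to 1 with arrays left out. The array weights of WT 0 h were 0.42, 6.30 and 1.37 for replicates 1, 2 and 3, so 1 array carried most of that group. In Ex6DEL the count became 1 (Cecr2) with probe sets averaged, and 0 to 1 with arrays left out. At 4 h between genotypes it was 0 to 1 with arrays left out (Cecr2). Over all probe sets and settings the counts moved more: 216 in WT became 27 to 2269, 300 in Ex6DEL 0 to 1718 and 2119 averaged 399 to 3887, and between genotypes 10 at 0 h became 0 to 113, 3 at 4 h 0 to 85, 10 averaged 0 to 58 and 10 for the interaction 0 to 65.

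Samples with the same replicate number correlated at a median of 0.208 in their deviations from group means (-0.369 to 0.727), and 11 of 18 pairs were over 0.1, so the numbers were not taken to pair the samples, although 9 of 12 arrays correlated best with their own number. With the replicate block the count of members in the averaged hCG response stayed 1, but the call was Baz1a 1447930_at (adjusted p = 0.0115) and not Chrac1 1422505_at (adjusted p = 0.0543). Over all probe sets the block gave 116 calls in WT, 55 in Ex6DEL and 1868 averaged. It also called Fgl2 1421855_at (adjusted p = 0.0389) and lost Star 1449201_at (adjusted p = 0.0690). The Smarca1 minus Smarca5 change of -0.571 had a permutation p of 0.015 after the mean of each replicate number was subtracted. Times were still permuted over all 400 arrangements within genotypes, and not within replicate numbers. This p is therefore not from an exact test of a blocked design, and no conclusion is drawn from it. With arrays left out the change ranged from -0.726 to -0.355.

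Values turned sign as follows. Quantile normalization moved the median change of the probe sets above the median level by 0.14 in the Ex6DEL response. The same median moved by -0.13 at 0 h between genotypes and by 0.20 in the difference of responses. With this normalization the WT changes became -0.114 for Baz1b and -0.172 for Rbbp7. The Ex6DEL change became 0.228 for Baz2a, and the averaged change of Rbbp7 1415775_at became -0.00216. The averaged genotype difference became -0.121 for Smarca5, -0.0920 for Rbbp4, -0.0413 for Baz2a and -0.0208 for Chrac1, and the difference of responses 0.00298 for Rbbp7. A shift to 1 median gave Smarca1 a genotype difference of 0.0121. Averaging a gene's probe sets gave 0.0724 for Baz1b and 0.227 for Baz2a in Ex6DEL, 0.0541 for Baz1b and 0.0492 for Rbbp7 averaged, and genotype differences of 0.201 for Baz1a and -0.00132 for Chrac1. Array weights gave -0.0139 for Baz1b in WT, 0.0329 for Rbbp7 averaged, and genotype differences of 0.141 for Baz1a, -0.0334 for Bptf and -0.139 for Chrac1. With arrays left out, the WT changes ranged from -0.150 to 0.354 for Baz1b and -0.455 to 0.0898 for Rbbp4, and the Ex6DEL change from -0.282 to 0.258 for Baz2a. The averaged changes ranged from -0.168 to 0.288 for Rbbp7 1415775_at and -0.300 to 0.127 for 1456227_x_at, -0.105 to 0.210 for Bptf 1427311_at and -0.205 to 0.745 for Rbbp4 1456260_at. The averaged genotype differences ranged from -0.218 to 0.241 for Smarca1, -0.231 to 0.244 for Smarca5, -0.396 to 0.338 for Baz1a, -0.0743 to 0.196 for Baz2a, -0.0756 to 0.360 for Bptf and -0.337 to 0.336 for Chrac1. Low signals near background limit what Cecr2 and the lower Chrac1 probe set can show.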

Other observations

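Among 9096 other genes with a mean above the median level, those whose values followed Smarca1 most closely over the 12 arrays were Dmd, the dystrophin gene (Pearson r 0.973, Spearman rho 0.720), Ahctf1, which encodes the nuclear pore protein ELYS (0.954, 0.734), and Stk17b, a kinase gene (0.948, 0.655). Dmd read 5.81, 6.52 and 6.23 in WT 0 h, 8.43, 6.58 and 6.57 in WT 4 h, 6.46, 6.29 and 6.14 in Ex6DEL 0 h and 8.04, 6.51 and 6.65 in Ex6DEL 4 h. As with Smarca1, replicate 1 of both 4 h groups stood above all other arrays. Without these 2 arrays, which lay farthest from the Smarca1 median, r was 0.776 for Dmd, 0.781 for Ahctf1 and 0.651 for Stk17b. Among the members Baz1a (r 0.782) and Smarca5 (r 0.735) were closest to Smarca1, and without the same arrays r was -0.05 and 0.33. With the group means subtracted, Zfp715 (r 0.973), Dmd (0.971) and Socs4 (0.969) came first. These were picked as the highest of many, and arrays of a group share their treatment, so the values are descriptions.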
